A study of Mus musculus with 14 samples.

Results

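The Myc family genes were taken by symbol from the table of RNA-seq counts of mouse 2-cell embryos, as the genes named Myc, Mycn, Mycl and Max. All 4 were found among the 56923 genes of the table, each listed once. Myc, Mycn and Mycl encode the MYC proteins, transcription factors of the basic helix-loop-helix leucine zipper class that bind DNA only as a dimer with MAX, the product of the 4th gene. MYC:MAX dimers bind the E-box CACGTG and are best known for raising the transcription of genes for ribosome biogenesis, nucleotide and polyamine synthesis and cell growth. MAX also pairs with the MXD proteins, MNT and MGA, which repress the same sites, so the balance of partners is part of how the network is read in any cell.

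The 14 libraries were made from ICR mouse embryos, 5 embryos each, and fell into 7 groups of 2 libraries. Early 2-cell embryos were collected at 30 h and late 2-cell embryos at 54 h after hCG injection. The G&N embryos of both stages were kept from 24 h post-hCG in mKSOM medium that held 10 mM lactate, 50 μM NMN and 5 μM Gne140, which blocks the lactate dehydrogenases LDHA and LDHB, and the G&N-L embryos in the same medium without lactate. The late G&N-L + Lac-CoA embryos, called Lac-CoA here, were injected as zygotes with 1 mM lactyl-CoA and then cultured as the G&N-L embryos. The H3K18R and WT embryos were late 2-cell embryos for which the study describes injection, at 14 h post-hCG, of mixed histone H3 mRNAs with lysine 18 changed to arginine or in wild-type form. The sources used here name no inhibitor for the H3K18R and WT embryos, and the 14 libraries hold no group cultured as the G&N embryos but without Gne140 and NMN. The treatment labels named no absence of lactate for the early G&N-L embryos, only the inhibitor for the early G&N embryos and CoA for the Lac-CoA embryos, and the columns of the mutant gave alanine in place of arginine, so groups followed the titles.

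The libraries held 20350427 to 61275465 counts, so that 3 counts, the limit that a count of 0 allows, equalled 0.0589 to 0.144 CPM (counts per 1000000 of the TMM-normalized library size). H3c1, a histone H3 gene, was counted 43643 and 83390 times in H3K18R and 0 to 66 times in the other 12 libraries, with 4 and 3 in WT, and the table could not tell whether the WT embryos had been injected. All 6 markers of the 2-cell stage were detected in every library, with a summed level of 460 to 808 CPM in the early and 1008 to 3289 CPM in the late libraries, while Nanog, Cdx2, Sox2 and Gata6, the later lineage markers, summed to 1.39 to 9.79 CPM. Of 8 cumulus cell markers, 2 to 5 were detected per library, Inhba was at 0 in all, and their summed level was 12.4 to 37.7 CPM in WT and H3K18R and 1.76 to 9.66 CPM in the early libraries, with 3.43 to 21.3 CPM in the other late ones. All 7 maternal markers were detected in every library, and their summed level was 19441 to 25906 CPM in the early libraries, 9696 to 18807 CPM in the late G&N, G&N-L and Lac-CoA libraries and 3474 to 8034 CPM in the H3K18R and WT libraries. The H3K18R and WT libraries lay below the other late ones in this sum, most of which came from Btg4, Oosp1 and Bmp15, while Zp3 was higher in them, at 90.4 to 157 CPM against 37.1 to 61.2 CPM. The cumulus markers did not all go the same way, and for them fewer cells and less RNA per cell cannot be told apart in such bulk samples. Each library was made from 5 embryos of the 2-cell stage, and what lay behind the differences in the other markers was not tested.

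The members lie at 4 loci of the GRCm39 assembly. Myc (ENSMUSG00000022346.18) spans chr15:61857227-61862223 on the plus strand and Mycl (ENSMUSG00000028654.14) chr4:122889408-122896282 on the plus strand. Mycn (ENSMUSG00000037169.16) spans chr12:12986076-12992915 and Max (ENSMUSG00000059436.14) chr12:76984043-77009009, both on the minus strand. In the annotation used here an antisense lncRNA overlaps each of the 3 MYC genes (Gm62594 over Myc, Gm59473 over Mycn and Gm54255 over Mycl), and the sources do not state that strand was used in counting, so reads of a gene and its antisense partner cannot be told apart. Max is overlapped on its own strand by the provisional gene model Gm47218, which had 0 to 58 counts per library.

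The promoters of Max and Myc are shown because both are members and differ in the E-box, and that of Cdk4, the cell cycle kinase gene of the target list, because it held the most E-boxes of the lists. Cdk4 was chosen after its promoter was seen. Capitals mark CACGTG, which reads the same on both strands, and each sequence is given 5′ to 3′ on the gene's strand and ends 10 bases before the start of the gene's main transcript. They were read from the GRCm39 genome at chr12:77009011-77009300 (minus strand, Max), chr15:61856927-61857216 (plus strand, Myc, inside an exon of the antisense lncRNA) and chr10:126899075-126899364 (plus strand, Cdk4).
Max: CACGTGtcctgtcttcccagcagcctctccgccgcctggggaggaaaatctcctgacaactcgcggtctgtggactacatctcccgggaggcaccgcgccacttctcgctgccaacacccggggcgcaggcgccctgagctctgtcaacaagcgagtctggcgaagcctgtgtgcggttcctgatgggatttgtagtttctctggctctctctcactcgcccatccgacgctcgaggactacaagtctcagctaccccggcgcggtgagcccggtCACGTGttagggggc
Myc: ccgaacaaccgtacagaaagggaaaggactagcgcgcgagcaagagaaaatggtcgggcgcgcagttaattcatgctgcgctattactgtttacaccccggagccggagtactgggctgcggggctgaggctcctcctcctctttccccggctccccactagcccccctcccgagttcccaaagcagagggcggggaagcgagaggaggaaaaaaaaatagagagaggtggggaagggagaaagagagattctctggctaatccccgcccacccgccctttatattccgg
Cdk4: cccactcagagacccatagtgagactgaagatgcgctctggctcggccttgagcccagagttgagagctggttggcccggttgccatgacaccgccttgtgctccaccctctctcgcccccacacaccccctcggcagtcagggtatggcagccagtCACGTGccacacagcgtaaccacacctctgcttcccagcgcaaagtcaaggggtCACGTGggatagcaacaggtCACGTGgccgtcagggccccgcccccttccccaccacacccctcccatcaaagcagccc

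In the 300 bases before the start, the Max promoter held 2 E-boxes, beginning 300 and 25 bases before the start, and the Cdk4 promoter held 3, beginning 143, 89 and 69 bases before it. No match was found in these windows for Myc, Mycn or Mycl. Over all 21757 protein-coding genes, 6.95% of such windows held CACGTG. Among 9 genes for other partners of the network 4 held it (Mxd3, Mxd4, Mlx and Mlxip), and among 67 target genes 7 did (Cdk4, Hspd1, Imp4, Nop2, Nop56, Phb1 and Srm). Of 16 cofactor genes 2 held it, and of 12 genes for MYC stability 1. A match is a description of the letters and no evidence of binding.

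Max transcripts were more abundant per length than those of the MYC genes in all 7 groups. Levels of different genes are compared per kilobase of exon. Per length, the group means of Max were 5.99 to 23.0 CPM per kb, those of Myc 0.290 to 4.27, those of Mycn 0 to 1.31 and those of Mycl 0 to 0.396. The ratio of Max to Myc on this scale was 70.3 in early G&N, 41.9 in early G&N-L, 21.0 in late G&N, 59.6 in late G&N-L, 9.19 in Lac-CoA, 2.36 in H3K18R and 1.60 in WT embryos. Max and Myc were counted in all 14 libraries, Mycn was at 0 in 2 of them and Mycl in 6.

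Myc, the widely expressed founding gene of the family, had 0.785 and 0.797 CPM in the early G&N libraries and 1.34 and 1.04 CPM in the early G&N-L libraries. At the late stage it had 2.82 and 3.08 CPM in G&N, 1.95 and 0.157 CPM in G&N-L, and 6.14 and 3.74 CPM in Lac-CoA. It had 9.18 and 11.3 CPM in WT and 9.87 and 13.5 CPM in H3K18R. The order of the group means was H3K18R (11.7 ± 2.54 CPM, SD, n = 2), WT (10.2 ± 1.49), Lac-CoA (4.94 ± 1.70), late G&N (2.95 ± 0.182), early G&N-L (1.19 ± 0.207), late G&N-L (1.05 ± 1.27) and early G&N (0.791 ± 0.00810). The libraries of H3K18R and WT overlapped, as did those of late G&N-L with both early groups, and every other pair of neighbours in this order was separate. The pair of late G&N-L libraries, with 75 and 6 counts, differed 12.5-fold, the widest spread of Myc between the libraries of a group.

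Mycn, known for its roles in neural and embryonic progenitors, had no count in either early G&N library and 74 and 15 counts, 1.86 and 0.680 CPM, in the early G&N-L libraries. At the late stage it had 2.30 and 1.38 CPM in G&N, 0.0520 and 2.87 CPM in G&N-L and 2.76 and 9.30 CPM in Lac-CoA. It had 2.83 and 0.0617 CPM in WT and 2.68 and 3.20 CPM in H3K18R. The group means were 6.03 ± 4.62 CPM in Lac-CoA, 2.94 ± 0.365 in H3K18R, 1.84 ± 0.652 in late G&N, 1.46 ± 1.99 in late G&N-L, 1.44 ± 1.96 in WT and 1.27 ± 0.838 in early G&N-L (SD, n = 2). Only H3K18R and late G&N, and early G&N-L and early G&N, were neighbours in this order without overlap. One library each of late G&N-L and WT held 2 counts beside 110 and 65 in the other, so that these 2 groups reached from the limit of a count of 0 to the level of most late libraries.

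Mycl, the family member first found in lung cancer, had 65 and 63 counts in the late G&N-L libraries, 1.69 and 1.64 CPM, the only group in which both libraries held more than 3 counts. Late G&N had 3 and 47 counts, 0.0821 and 1.08 CPM, and Lac-CoA had 0 and 2. The remaining groups had 0 and 15 (early G&N-L), 0 and 24 (H3K18R) and 0 and 20 counts (WT), and both early G&N libraries were at 0. The late G&N-L libraries were above every other library, and neighbours in the order of the other groups overlapped or were at 0, while both late G&N libraries lay above both early G&N and both Lac-CoA libraries.

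Max, the obligate partner, had 87.6 and 87.9 CPM in early G&N, 92.3 and 64.7 CPM in early G&N-L, and 82.5 and 60.7 CPM in Lac-CoA libraries. It had 87.7 and 108 CPM in late G&N and 88.4 and 110 CPM in late G&N-L. Levels were 38.3 and 48.5 CPM in H3K18R and 30.01 and 21.6 CPM in WT, below all 10 other libraries. The means were 99.0 ± 15.0 CPM in late G&N-L, 97.8 ± 14.3 in late G&N, 87.7 ± 0.223 in early G&N, 78.5 ± 19.5 in early G&N-L, 71.6 ± 15.4 in Lac-CoA, 43.4 ± 7.18 in H3K18R and 25.8 ± 5.95 in WT (SD, n = 2). The first 5 of these overlapped each with the next, and H3K18R and WT were separate from Lac-CoA and from each other.

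**Figure D1:**
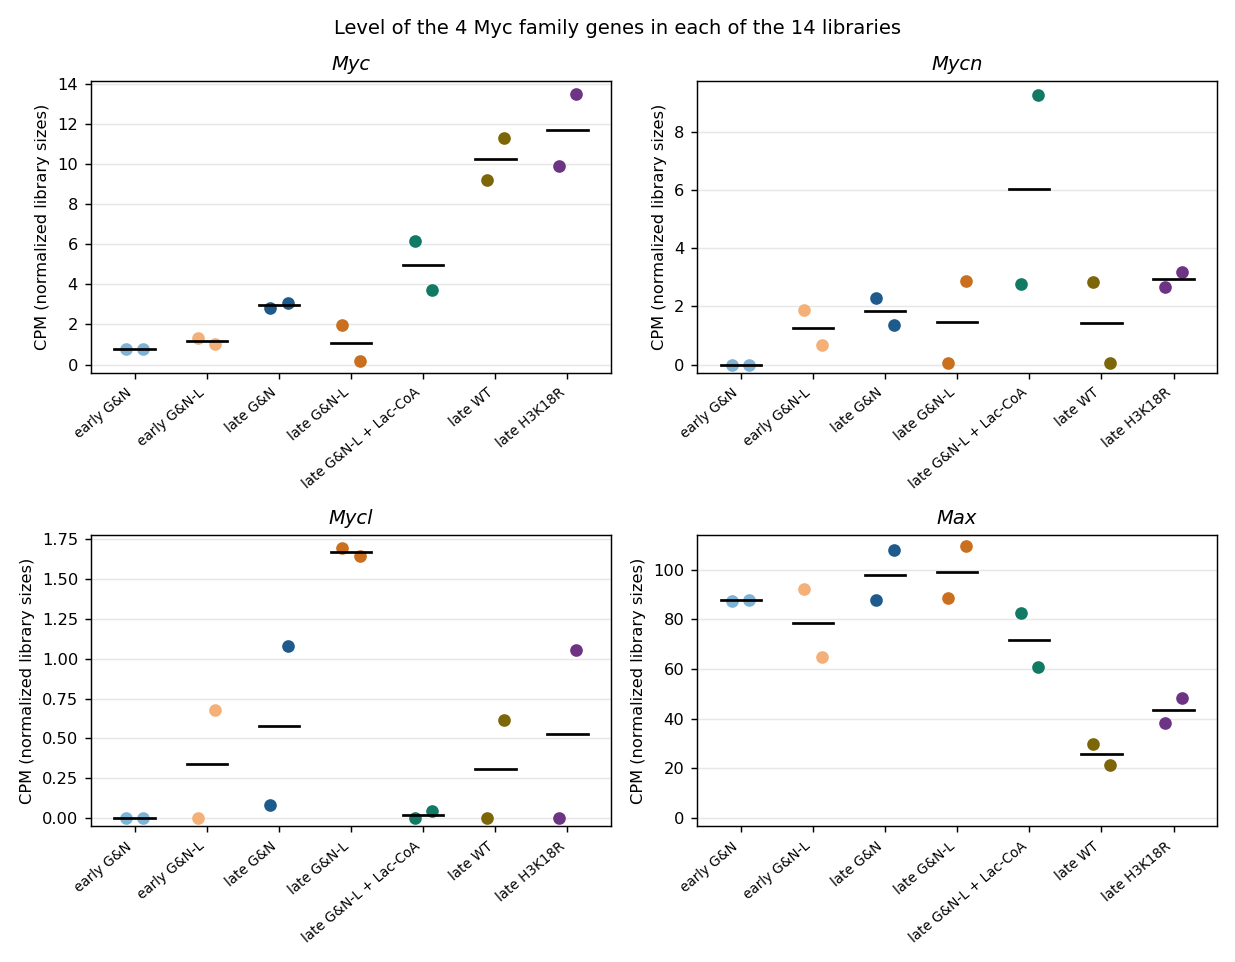
Level in CPM (linear axes from 0) of Myc, Mycn, Mycl and Max in each of the 14 libraries, with a point for each library and a line for the mean of each group of 2. Max lies at 21.6 to 110 CPM and is lowest in WT and H3K18R, where Myc is highest, while the points of Mycn and Mycl of a group often lie far apart.

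Each comparison of 2 groups was fitted on its own 4 libraries with edgeR's quasi-likelihood test, and adjusted p-values are those of Benjamini and Hochberg over all genes tested, with a threshold of 0.05. Over 8 such comparisons, 1 of the fits of a member passed, that of Max between WT and late G&N embryos. Groups are said to be separate where every library of one was above every library of the other, and the share of all genes tested that were separate is given beside each count of members.

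The effect of lactate at the late 2-cell stage was asked by comparing late G&N-L with late G&N embryos. Myc was lower in both G&N-L libraries than in both G&N libraries, with a log2 fold change of -1.42 (SE 1.40, adjusted p = 0.844), and Mycl was higher in both (1.60, SE 1.60, adjusted p = 0.848). Mycn overlapped between the groups (-0.31, SE 1.75), and so did Max (0.07, SE 0.234, adjusted p = 0.984), for which the 95% interval ran from -0.52 to 0.65. Of the 4 members 2 were separate, beside 43.5% of all 19481 genes tested. No member passed the adjusted threshold or an unadjusted p of 0.05. By edgeR 0% of all genes passed the adjusted threshold, while 1490 genes were lower and 842 higher at an unadjusted p under 0.05 and DESeq2 called 934. The value of Myc hung on the G&N-L libraries: it was -4.18 without the first and -0.53 without the second. That of Mycl hung on the G&N libraries, at 0.72 without the first and 4.37 without the second.

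At the early 2-cell stage the same contrast gave a log2 fold change of Myc of 0.70 (SE 1.20, adjusted p = 1), with both G&N-L libraries above both G&N libraries. Mycn, with no count in the early G&N libraries, was at least 20.01-fold higher in G&N-L, taken against 3 counts per library, with an adjusted p of 1 in edgeR's quasi-likelihood test. Max overlapped (-0.06, 95% interval -0.64 to 0.53), and Mycl did not pass the filter on low counts. Of the 3 members tested 2 were separate, beside 32.7% of 17343 genes, and 0% of genes passed the adjusted threshold, with 468 lower and 316 higher at an unadjusted p under 0.05 and 38 called by DESeq2. The interaction of stage and lactate over 8 libraries was -2.08 for Myc (SE 1.94, adjusted p = 0.865) and 0.16 for Max (SE 0.349, adjusted p = 1) on the log2 scale. Adjusted p was 0.65 for Mycn, which rests on the group at 0, and 0.745 for Mycl. No member passed, and 0% of all 22287 genes passed by edgeR's quasi-likelihood test, with 888 lower and 795 higher at an unadjusted p under 0.05 and 239 called by DESeq2.

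From the early to the late stage in G&N medium, Myc had a log2 fold change of 1.82 that did not pass the test (SE 1.02, adjusted p = 0.28), although its late libraries were separate from and above the early ones. Mycn, at 0 in early G&N, was at least 28.9-fold higher in late G&N, taken against 3 counts per library, with an adjusted p of 0.053 in edgeR's quasi-likelihood test. It passed with DESeq2 (adjusted p = 0.00182), without the filter (0.0204), with all 14 libraries in one fit (0.0407) and on library totals (0.05 after rounding). It missed the threshold in the other settings that gave a value. Its counts in this comparison, 84 and 60, came only from the late G&N libraries, so these calls are no independent support. Max had a log2 fold change of 0.08 (95% interval -0.60 to 0.76), and Mycl was not tested. Of the 3 members tested 2 were separate, beside 64.6% of 19443 genes, and no member passed the adjusted threshold, beside 13.7% of genes (5.47% lower and 8.18% higher). In the G&N-L embryos the late libraries were separate from the early ones for Mycl alone (2.20, SE 2.13, adjusted p = 0.573), while Myc (-0.22, SE 1.52), Mycn (0.14, SE 1.83) and Max (0.28, 95% interval -0.32 to 0.88) overlapped. The value of Mycl was 1.17 without the first early library and 9.01 without the second, which left an early library at 0, so that this value is no bound (adjusted p = 0.185 by edgeR). That was 1 of 4 members separate, beside 62.5% of 18604 genes, and no member passed the adjusted threshold, beside 11.8% of genes (5.87% lower and 5.97% higher).

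Scaling to library totals without TMM raised the median log2 fold change of all genes by 0.38 in the G&N comparison of stages and by 0.37 in that of G&N-L. Called genes were then 2005 higher and 618 lower in place of 1591 and 1063, and 1819 higher and 685 lower in place of 1111 and 1092. With that scaling Myc was 0.15 in the G&N-L comparison of stages, against -0.22, and no other member changed direction in the comparisons of stage.

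The injection of Lac-CoA was compared with late G&N-L and late G&N. Both comparisons share the Lac-CoA libraries, so the values are given side by side. The study describes no injection for the G&N-L and G&N embryos, so Lac-CoA and the injection itself cannot be told apart in these comparisons. Myc was higher in both Lac-CoA libraries than in G&N-L (log2 fold change 2.17, SE 1.37, adjusted p = 0.607) and than in G&N (0.84, SE 0.764, adjusted p = 0.954). Max was lower in both than in G&N-L (-0.51, SE 0.261, adjusted p = 0.503) and than in G&N (-0.35, SE 0.275, adjusted p = 0.911). Mycn overlapped with G&N-L (2.00, SE 1.71) and was separate from and above G&N (1.79, SE 0.945, adjusted p = 0.749). Mycl had 2 counts in Lac-CoA and 128 in G&N-L, a ratio of levels of 72.4 with a 95% counting interval of 19.6 to 604, and an adjusted p of 0.319 in edgeR's quasi-likelihood test. Against the 50 counts of G&N the ratio was 27.1 (7.12 to 230), nearly all from 1 G&N library, and Mycl was not tested there.

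In the comparison of Lac-CoA with G&N-L, 3 of 4 members were separate beside 46.8% of 19610 genes, and in that with G&N 3 of 3 tested beside 39.7% of 19613. No gene passed the adjusted threshold by edgeR (0% in each), while 1252 were lower and 1357 higher at an unadjusted p under 0.05 in the first and 805 and 865 in the second, and DESeq2 called 1215 and 476. The value of Myc against G&N-L was 4.91 without the first G&N-L library and 1.29 without the second.

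H3K18R was compared with WT for the effect of the mutant histone. Max was higher in both H3K18R libraries, with a log2 fold change of 0.75 (SE 0.372, adjusted p = 0.83). The other members overlapped: Myc at 0.19 (95% interval -1.07 to 1.46), Mycn at 1.03 (SE 1.69) and Mycl at 0.75 (SE 2.77). That was 1 of 4 separate, beside 39% of 17704 genes. No member passed the adjusted threshold or an unadjusted p of 0.05, beside 0.00565% of all genes, which is 1 gene, and 120 called by DESeq2.

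Max was lower in WT than in late G&N embryos, with 30.01 and 21.6 CPM against 87.7 and 108 CPM and a log2 fold change of -1.96 (SE 0.289, 95% interval -2.70 to -1.23). It passed edgeR's quasi-likelihood test with an adjusted p of 0.0413, and all 7 other settings kept the call, with adjusted p-values of 1.1e-06 to 0.0467. Without any one of the 4 libraries the value stayed at -2.22 to -1.74, but the adjusted p rose to 0.0636 to 0.111. Myc was higher in both WT libraries, with 9.18 and 11.3 CPM against 2.82 and 3.08 CPM, a log2 fold change of 1.75 (SE 0.580) that missed the threshold by edgeR (adjusted p = 0.124) and passed by DESeq2 (adjusted p = 0.0483). Mycn (-0.41, SE 1.73) and Mycl (-0.90, SE 2.31) overlapped. Of 4 members 2 were separate, beside 60.6% of 18986 genes, and 1 passed the adjusted threshold, beside 4.62% of genes (2.68% lower and 1.94% higher).

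The study describes injection of H3 mRNA for the WT embryos, and culture with Gne140 and NMN for the G&N embryos. The sources name no inhibitor for WT, and the table could not tell whether WT had been injected. Injection and inhibitor cannot be told apart in this comparison. The summed level of the maternal markers was lower in WT, at 3474 and 3618 CPM against 12808 and 14758 CPM, as were 6 of the 7 markers, while Zp3 was higher in WT, at 115 and 157 against 55.4 and 61.2 CPM. The cumulus markers, most of them near 0 in every library, summed to 12.4 and 25.6 against 5.01 and 21.3 CPM. Of these Amhr2 was higher and Fshr lower in WT, and the other 6 overlapped. The part of these markers in the values of Max and Myc was not tested.

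**Figure D2:**
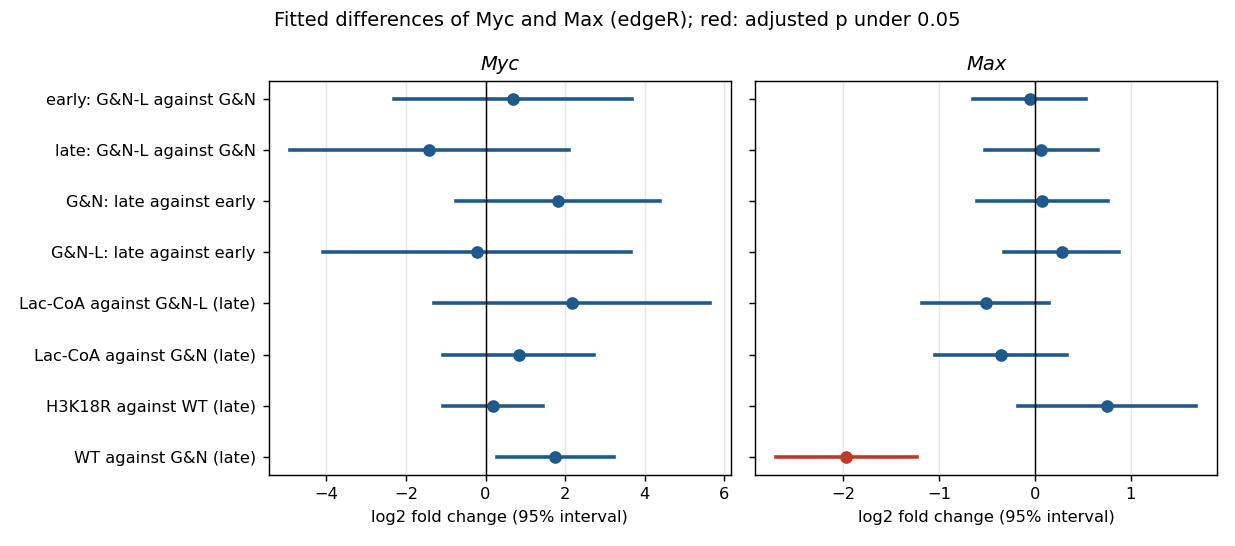
Log2 fold change (points) and its 95% interval (bars) of Myc and Max in the 8 comparisons of 2 groups, from edgeR fits of 4 libraries each, with a line at 0 and different x axes for the genes. Only the bar of Max between WT and late G&N embryos, from -2.70 to -1.23, is drawn in red for an adjusted p under 0.05, and the bars of Myc are wider than those of Max.

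By the likeness of log2(CPM + 1) over the 7 group means, among 9890 genes with a mean of at least 5 CPM, the pattern of Myc was nearest to BC003965 (Pearson's r 0.991), Exosc5 (0.985), a subunit of the RNA exosome, and Psmd7 (0.984), a subunit of the proteasome. Mycn was nearest to Hecw2 (0.950), a ubiquitin ligase gene, Nab1 (0.948) and Snx18 (0.947), and Max to Blm (0.997), a DNA helicase gene, Rab14 (0.995) and Gm20627 (0.995). These values describe only 7 means, of libraries that differ in depth and in stage, and Exosc5 is also on the target list. The genes named depend on the measure: by Spearman's rho over the 14 libraries the nearest were Gm7104 (0.943), BC003965 (0.943) and Cad (0.938) for Myc, Slc18a2 (0.895), Mmgt1 (0.889) and Skil (0.862) for Mycn, and Ubb (0.987), Gm20627 (0.956) and Smarca2 (0.952) for Max. By that measure Hecw2 had 0.471 with Mycn. Mycl had a mean under 1 CPM and was left out.

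The genes for the other partners in the network were Mxd1, Mxi1, Mxd3, Mxd4, Mnt and Mga, whose products pair with MAX, and Mlx, Mlxip and Mlxipl, of the parallel MLX branch that senses glucose. Mga, which encodes a repressor of germ cell genes and other developmental genes, had a mean of 42.8 ± 14.5 CPM in early and 118 ± 8.31 CPM in late G&N embryos, and 32.3 ± 14.2 and 127 ± 23.5 CPM in early and late G&N-L embryos (SD, n = 2). The early and late libraries were separate in both media. The difference passed edgeR's quasi-likelihood test in G&N-L (log2 fold change 1.93, SE 0.348, adjusted p = 0.0311) and missed it in G&N (1.36, SE 0.386, adjusted p = 0.0685), where it passed with DESeq2 (0.00345), without the filter (0.00466) and in 3 other settings. When each library was left out in turn, Mga passed in G&N-L only without the first early library (adjusted p = 0.0263), and the highest value was 0.124.

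Mlxipl, the gene of the glucose-responsive factor ChREBP, fell between the stages. Its mean was 65.2 ± 12.7 CPM in early and 24.6 ± 5.59 CPM in late G&N embryos, and 54.2 ± 1.75 and 24.3 ± 0.539 CPM in G&N-L embryos, with separate libraries in both. The log2 fold changes were -1.47 (SE 0.332, adjusted p = 0.0454) and -1.22 (SE 0.227, adjusted p = 0.0335) by edgeR's quasi-likelihood test. On library totals they were -1.10 and -0.85, with adjusted p-values of 0.088 and 0.0679, in a joint fit of the 14 libraries adjusted p was 0.0907 and 0.197, and both calls were lost with any 1 library left out, at 0.0825 to 0.183 and 0.117 to 0.134.

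Of the 9 partner genes 1 fell and none rose among 9 tested from early to late G&N, and 1 fell and 1 rose among 8 tested in G&N-L, beside 5.47% lower and 8.18% higher of all genes in G&N and 5.87% and 5.97% in G&N-L. None passed edgeR's quasi-likelihood test, with its default filter, in the other comparisons. Mlx, the dimer partner of the branch, had 11.9 ± 7.38 CPM in early and 1.48 ± 1.25 CPM in late G&N embryos, and 10.3 ± 8.19 CPM in late G&N-L embryos (late G&N-L against G&N: log2 fold change 2.85, SE 1.01, adjusted p = 0.357). Between the stages in G&N it missed the threshold by edgeR with its default filter and passed with DESeq2 (adjusted p = 0.00978), without the filter (0.00613) and with at least 10 counts (0.0293). Mlxip had 33.5 ± 19.4 CPM in early G&N and 10.6 ± 3.57 CPM in early G&N-L embryos (-1.52, SE 0.469, adjusted p = 1).

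Mxd3, an MXD gene of cycling cells, was at 0 in both late G&N-L libraries and at 1.57 ± 0.0299 CPM in Lac-CoA (SD, n = 2), at least 20.04-fold higher when taken against 3 counts per library, with an adjusted p of 0.304 by edgeR and 0.0446 by DESeq2. Mxd4 had 6.85 ± 1.39 CPM in WT, 26.3 ± 3.19 CPM in late G&N and 19.3 ± 4.16 CPM in H3K18R (WT against G&N: -1.99, SE 0.411, adjusted p = 0.0603 by edgeR). It passed with DESeq2 (adjusted p = 0.00143), without the filter (0.00431) and with at least 10 counts (0.0175). Mxd1 had 16.4 to 51.6 CPM, Mxi1 1.42 to 4.69 CPM and Mnt 0.390 to 2.19 CPM over the group means, and none of their fits passed.

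**Figure D3:**
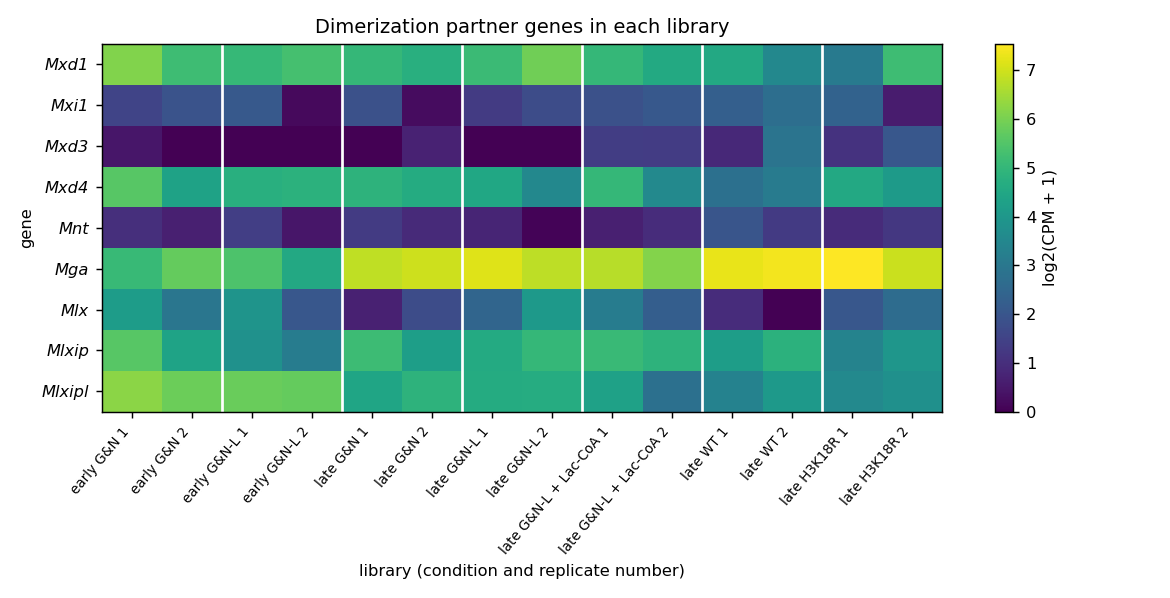
Level as log2(CPM + 1), given by colour, of the 9 partner genes (rows) in each of the 14 libraries (columns, in pairs of replicates by group). Within its row Mga is brighter in the 10 late than in the 4 early libraries, Mlxipl is darker in the late ones, and Mxd3 is at 0 in 6 libraries.

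Among 16 genes for cofactors of MYC, 15 were tested from early to late G&N embryos, where 1 fell and 2 rose, and 15 in G&N-L, where 2 fell and 1 rose, beside 5.47% lower and 8.18% higher of all genes in G&N and 5.87% and 5.97% in G&N-L. Ruvbl1 and Ruvbl2 encode the paired ATPases of the TIP60 and INO80 complexes. Ruvbl1 rose from 35.8 ± 3.77 to 168 ± 65.7 CPM in G&N (log2 fold change 2.15, SE 0.383, adjusted p = 0.026), and Ruvbl2 fell from 89.9 ± 50.6 to 17.6 ± 4.92 CPM (-2.39, SE 0.463, adjusted p = 0.0323). In G&N-L they went the same ways (1.31, adjusted p = 0.0219, and -1.87, adjusted p = 0.0178). Cdk9, the kinase of P-TEFb that releases paused polymerase, rose from 3.92 ± 1.15 to 32.1 ± 15.7 CPM in G&N (2.93, SE 0.601, adjusted p = 0.0364). Smarcb1 (-1.75, adjusted p = 0.0661) and Mycbp (-0.90, adjusted p = 0.0786), a MYC-binding protein, missed the threshold of edgeR's quasi-likelihood test and passed with DESeq2 (0.0084 and 0.0409). On library totals Ruvbl2 lost its call in G&N (adjusted p = 0.0552). With 1 library left out, adjusted p in G&N reached 0.106 for Ruvbl1, 0.144 for Ruvbl2 and 0.158 for Cdk9, and in G&N-L 0.0999 for Ruvbl1 and 0.0894 for Ruvbl2.

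Between late G&N-L and G&N embryos no cofactor passed by edgeR, and 10 of 15 had lower values in G&N-L, with a median log2 fold change of -0.38 beside -0.02 for all genes. Cdk9 was at 5.89 ± 3.12 CPM in G&N-L (-2.38, SE 0.599, adjusted p = 0.324 by edgeR) and, with its cyclin partner Ccnt1 (-0.93, SE 0.268, adjusted p = 0.332) and Ruvbl1 (-0.97, SE 0.300, adjusted p = 0.334), was separate between the groups. Cdk9 passed with DESeq2 (adjusted p = 0.00565) and without the filter (0.0244). Hcfc1, a host cell factor, was lower (-0.77, adjusted p = 0.565) and Mycbp higher (0.50, adjusted p = 0.568), both separate. Ccnt1 rose in WT against late G&N embryos, from 61.9 ± 7.17 to 170 ± 22.3 CPM (1.42, SE 0.227, adjusted p = 0.043 by edgeR). It was the only cofactor to pass there by edgeR, beside 1.94% of all genes higher. DESeq2 called 1 cofactor lower and 2 higher there, beside 2131 lower and 2020 higher of all 18986 genes. With 1 library left out the value of Ccnt1 stayed at 1.28 to 1.61, but its call was lost. In the other comparisons no cofactor passed by edgeR. DESeq2 called 2 higher for Lac-CoA against G&N-L, beside 687 higher of all 19610 genes, and none in the rest. The median was -0.21 at the early stage without lactate, 0.20 for Lac-CoA against G&N-L, 0.04 against G&N and -0.30 for H3K18R against WT.

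The 12 genes for control of MYC stability gave 2 that rose and none that fell from early to late G&N, and 3 and 3 in G&N-L, beside 8.18% higher and 5.47% lower of all genes in G&N and 5.97% and 5.87% in G&N-L. Set, an inhibitor of the phosphatase PP2A, had 19.4 and 11.8 CPM in early G&N and 445 and 567 CPM in late G&N libraries. It rose by a log2 fold change of 4.97 (SE 0.339, adjusted p = 0.00599), and in G&N-L by 3.85 (SE 0.194, adjusted p = 0.00489), and both calls held with each library left out. Cip2a, another PP2A inhibitor, fell in G&N-L (-1.40, adjusted p = 0.0118) and missed the threshold in G&N (-1.06, adjusted p = 0.0537). Aurka, the mitotic kinase that stabilizes MYCN, likewise fell in G&N-L (-1.84, adjusted p = 0.0117) and had -1.48 in G&N (adjusted p = 0.0772). Usp36, a nucleolar deubiquitinase, had 2.72 in G&N (adjusted p = 0.0593). These 3 passed in G&N with DESeq2, at 0.00528 for Cip2a, 0.013 for Aurka and 0.000705 for Usp36. With 1 library left out, adjusted p in G&N-L reached 0.0606 for Cip2a and 0.0625 for Aurka.

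Between late G&N-L and G&N embryos no gene of this list passed by edgeR, while DESeq2 called 2 lower, beside 621 lower of all 19481 genes. Set was 1 of the 2 (adjusted p = 0.000616 by DESeq2). By edgeR Set (-1.09, SE 0.197, adjusted p = 0.311) and Aurka (-0.999, SE 0.279, adjusted p = 0.332) were lower and separate. Usp36 (-1.22, adjusted p = 0.62) and Skp2, a ubiquitin ligase subunit (-0.51, adjusted p = 0.705), were also separate. Over the list, 9 of 12 had lower values, with a median of -0.32. By edgeR no gene of the list passed at the early stage (median -0.03), for Lac-CoA against G&N-L (0.40) or G&N (-0.08), for H3K18R against WT (-0.22) or for WT against G&N (0.54). DESeq2 called 2 higher for Lac-CoA against G&N-L, beside 687 higher of all 19610 genes. For WT against G&N it called 2 lower and 4 higher, beside 2131 lower and 2020 higher of all 18986 genes. It called none in the other 3.

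A list of 67 genes known as MYC targets, many of them for ribosome biogenesis, was followed through the same comparisons. Like the other lists it was written by hand with earlier results of these data known. Its counts and medians are therefore descriptions and no independent test. From early to late G&N embryos 9 rose and 4 fell of 67 tested, beside 8.18% and 5.47% of all genes, and the median log2 fold change was 0.38 beside 0.08 for all genes. Nop16, a nucleolar protein, was at 0 in both early G&N libraries and at 152 and 287 CPM in late G&N, at least 3455-fold higher when taken against 3 counts per library (adjusted p = 0.00603). Pprc1, a coactivator for mitochondrial genes (4.51, SE 0.534, adjusted p = 0.0109), Wdr74 (4.25, SE 0.703, adjusted p = 0.0218), for ribosome assembly, and Odc1, the first enzyme of polyamine synthesis (2.53, SE 0.305, adjusted p = 0.0114), rose, while Tmem97, a sterol-regulated membrane protein, fell (-2.14, SE 0.246, adjusted p = 0.0106). In G&N-L embryos 7 rose and 5 fell of 65, beside 5.97% and 5.87% of all genes, with a median of 0.04 beside 0.15. The same 5 genes there gave 6.50 (adjusted p = 0.0371), 3.11 (0.032), -0.33 (0.917), 1.58 (0.0185) and -1.27 (0.0499) by edgeR. Nop16 had 38 and 0 counts in the early G&N-L libraries. Tmem97 lost its call in G&N-L on library totals (adjusted p = 0.0849) and with DESeq2's size factors (0.0549). With 1 library left out, adjusted p reached 0.0656 for Pprc1, 0.0979 for Wdr74, 0.0678 for Odc1 and 0.0714 for Tmem97 in G&N, and 0.134 for Pprc1, 0.089 for Odc1 and 0.143 for Tmem97 in G&N-L. The summed level of the maternal markers was lower at the late stage, from 25353 and 25906 to 12808 and 14758 CPM in G&N and from 19441 and 22697 to 16517 and 18807 CPM in G&N-L. Of the 7 markers 5 were lower and separate in G&N and 4 in G&N-L, the rest overlapped, and their part in the results on stage was not tested.

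Of all genes chosen by the naming rule from these lists and the partners, 11 passed in the G&N comparison of stages. The rule took genes by their smallest p in that comparison, so this number follows in part from the choice. Of all genes tested 13.7% passed in G&N and 11.8% in G&N-L. Most of the calls of named genes were lost when libraries were left out in turn. In G&N-L 14 passed, and 1 of them, Set, did so with each library left out.

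Between late G&N-L and G&N embryos 51 of the 66 target genes tested had lower values in G&N-L, with a median log2 fold change of -0.60, while 51% of all genes did, with a median of -0.02. None passed the adjusted threshold by edgeR. DESeq2 called 9 lower and 0 higher, beside 621 lower and 313 higher of all 19481 genes. Among the 9 were Nop16 (adjusted p = 1e-06 by DESeq2), Nip7 (0.000554), Nop56 (0.0013), Nop58 (0.0112) and Ddx18 (0.0209). Without the filter edgeR called 3 lower of 67, with Nop16 (0.00146) and Nip7 (0.014) among them, and with at least 10 counts 2 lower of 62, Nop16 (0.0206) and Nip7 (0.0482). The numbers of all genes called in these settings are given in the closing part. At an unadjusted p under 0.05, 18 were lower and 2 higher, beside 7.65% and 4.32% of all genes. Nop16 had 53.2 and 44.2 CPM in G&N-L against 152 and 287 CPM in G&N (-2.11, SE 0.344, adjusted p = 0.311). Nop56, a core protein of box C/D snoRNPs, had 61.1 and 60.8 CPM against 142 and 137 CPM (-1.15, SE 0.214, adjusted p = 0.311). Nip7, for 60S subunit assembly, had 27.0 and 40.3 CPM against 89.4 and 132 CPM (-1.67, SE 0.319, adjusted p = 0.311). Nop58, the partner of Nop56 (-1.12, adjusted p = 0.313), and the RNA helicase gene Ddx18 (-1.06, adjusted p = 0.316) were likewise lower and separate. With 1 library left out, 48 to 50 of the genes tested had lower values and the median was -0.71 to -0.51. The summed level of the maternal markers was higher in G&N-L, at 16517 and 18807 against 12808 and 14758 CPM, with 3 of 7 markers higher and separate. Zp3 (37.1 and 46.5 against 55.4 and 61.2 CPM) and Nlrp5 (113 and 93.4 against 131 and 196 CPM) were lower. The sum of the 2-cell markers was also higher, at 2350 and 2758 against 1916 and 2062 CPM, with 4 of 6 higher and separate and Tmem92 lower (27.7 and 24.5 against 31.0 and 29.3 CPM). The part of these markers in the result was not tested. At the early stage the median was -0.17 over 61 genes tested, beside -0.01, and none passed by edgeR or DESeq2.

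Lac-CoA was compared with the same G&N-L libraries as above, so the values of both comparisons are not independent. Against G&N-L, 52 of 67 target genes had higher values, with a median of 0.54 beside -0.01 for all genes. None passed by edgeR, and DESeq2 called 2 lower and 5 higher, beside 528 lower and 687 higher of all 19610 genes. At an unadjusted p under 0.05 by edgeR, 3 were lower and 7 higher, beside 6.38% and 6.92% of all genes. Nop16 had 195 and 158 CPM in Lac-CoA (1.81 against G&N-L, SE 0.238, adjusted p = 0.294), Nop56 109 and 110 CPM (0.79, SE 0.199, adjusted p = 0.294) and Nip7 41.7 and 126 CPM (1.26, SE 0.557, adjusted p = 0.427). Over the fits that left out 1 library, 46 to 50 had higher values and the median was 0.39 to 0.72. The summed level of the maternal markers was lower in Lac-CoA, at 13916 and 9696 CPM, than in G&N-L, with 5 of 7 lower and separate and 2 that overlapped. The sum of the 2-cell markers was higher, at 3128 and 3289 CPM, with 2 of 6 higher, 1 lower and 3 that overlapped, and the part of these markers was not tested. Against G&N, with the same Lac-CoA libraries, 33 of 66 were lower and 33 higher, with a median of -0.02 beside 0.01, and none passed by edgeR or DESeq2.

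The study describes injection of wild-type H3 mRNAs for the WT embryos, but the table could not tell whether they had been injected. If they had not, mutation and injection cannot be told apart between H3K18R and WT. Lower values in H3K18R were found for 56 of 66 target genes, beside 48.6% of all genes, with a median of -0.48 beside 0.03. None passed by edgeR, and DESeq2 called 1 lower, beside 31 lower and 89 higher of all 17704 genes. At an unadjusted p under 0.05 by edgeR, 6 were lower and 0 higher, beside 2.67% and 3.77% of all genes. Nip7 had 245 and 174 CPM in H3K18R against 513 and 587 CPM in WT (-1.39, SE 0.297, adjusted p = 0.734 by edgeR's quasi-likelihood test). Without the first H3K18R library the median of the list was -0.87, and without the second it was -0.23. Myc itself overlapped in that comparison. The summed level of the maternal markers was higher in H3K18R, at 3911 and 8034 against 3474 and 3618 CPM, with 3 of 7 higher and separate and 4 that overlapped. The 2-cell markers summed to 1557 and 1588 against 1393 and 1008 CPM, and their part was not tested.

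In WT against late G&N embryos, which may differ in more than the injection, 50 of 67 target genes had higher values. The median was 0.72 beside -0.16 for all genes, and 45.7% of all genes were higher. The WT libraries are also those compared with H3K18R, and the G&N libraries those compared with G&N-L. The values of these comparisons are therefore not independent. Of the list 5 rose and 2 fell by edgeR, beside 1.94% and 2.68% of all genes. DESeq2 called 27 higher and 4 lower of the list, beside 2020 higher and 2131 lower of all 18986 genes. Without the second G&N library 5 rose and 0 fell, and without any one of the other 3 none passed, while the median stayed at 0.70 to 0.78. Nip7 was among those that rose (2.27, SE 0.251, adjusted p = 0.0413), and with 1 library left out its adjusted p was 0.0468 to 0.0949. Cdk4, whose promoter is printed above, had 6.97 ± 2.84 CPM in late G&N and 15.2 ± 4.005 CPM in WT (1.07, SE 0.556, adjusted p = 0.297). In late G&N-L it had 16.6 ± 1.30 CPM, above G&N (1.29, SE 0.515, adjusted p = 0.416), opposite in sign to the median of the list.

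**Figure D4:**
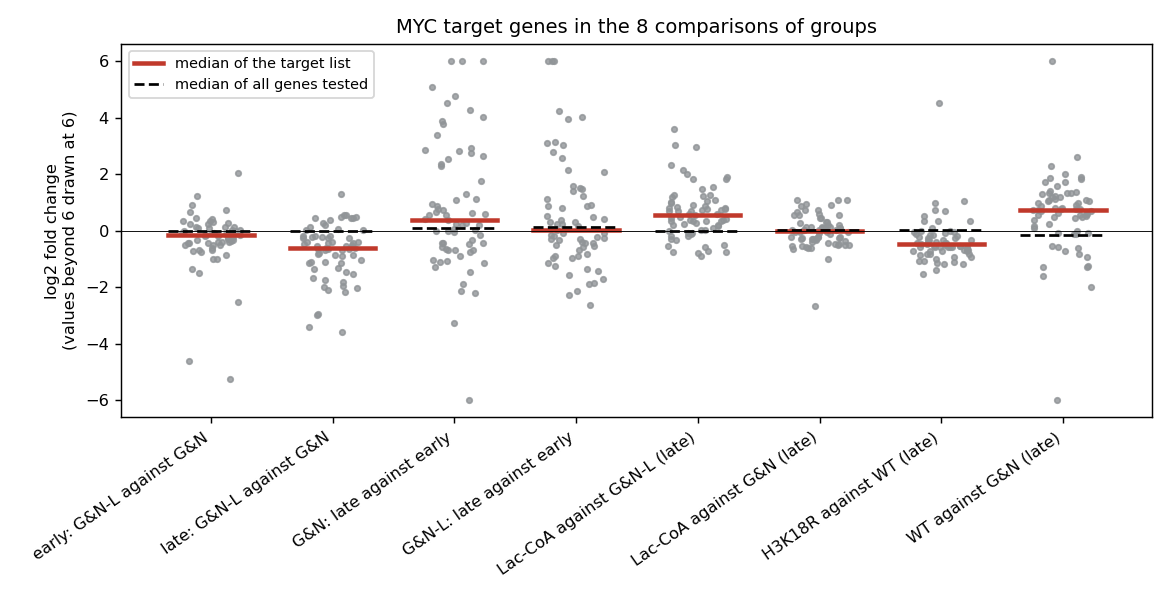
Log2 fold change (points, values beyond 6 in either direction drawn at the limit) of the MYC target genes tested in each of the 8 comparisons of 2 groups, with the median of the list (solid red line) and of all genes tested (dashed black line). The list's median lies below that of all genes in late G&N-L against G&N (-0.60) and H3K18R against WT (-0.48). It lies above it in Lac-CoA against G&N-L (0.54) and WT against G&N (0.72). These comparisons share the libraries of late G&N-L, late G&N and WT, so their medians are not independent. The list was written by hand with earlier results of these data known.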

How the data were processed

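The deposited values were raw counts of reads per gene, without normalization. Per the labels and the study, the authors ran FastQC and Trim Galore on the reads, aligned with HISAT2 to mm39, which is GRCm39, counted with featureCounts and tested with DESeq2, in versions not given in the sources used here. All 14 columns were used. Because 145 symbols were listed more than once, gene identifiers were followed. The labels state 3 replicates per group, of which 2 are analysed here. They do not say that replicates were separate collections, so p-values measure only the spread between these libraries, which may be technical. Within every group the libraries differed beyond counting noise (chi-square divided by its degrees of freedom, 47.8 to 195). Limits from 3 counts and counting intervals cover counting error only, since reads amplified by PCR without molecular identifiers are not independent molecules.

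The fits were made in R 4.3.3 with edgeR 4.0.16 and limma 3.58.1, with edgeR's default filter on low counts, TMM and its two-sided quasi-likelihood test on the 4 libraries of each comparison (8 for the interaction). The code was tested on simulated data. Fitted fold changes of genes at 0 in a group depend on the prior count of 0.125 and are no bounds. The alternatives were DESeq2 1.42.0, its size factors within edgeR, library totals, no filter, a minimum of 10 counts in each library, a joint fit of the 14 libraries, a block for the replicate number, and leaving out each library. With 2 libraries a group, exact permutation could not give p below 0.333 and was not used. Exon lengths and loci came from GENCODE vM39. The members and gene lists were written by hand and chosen with earlier results of these data known. The genes named were all members and partners, the 5 of each other list with the smallest p in late against early G&N and the 5 in late G&N-L against G&N, and 3 genes of like pattern per member. One gene that the rule names from the list for MYC stability is not reported here, and the counts and medians of that list include it. Cdk4 was added after its promoter was seen, and Ccnt1 and Nip7 are named in further comparisons because they were named by this rule.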

Additional observations from a re-analysis of the deposited data

How the results depend on the processing

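The number of genes called depended on the tool, the filter on low counts and the libraries used. DESeq2 called 934 genes for late lactate, 38 for early lactate, 5937 and 5182 for stage in G&N and G&N-L, 1215 and 476 for Lac-CoA against G&N-L and G&N, 120 for H3K18R, 4151 for WT against G&N and 239 for the interaction. Without the filter edgeR called 317, 42, 5060 (stage in G&N), 3, 22, 78, 3668 and 361, in the same order without stage in G&N-L. With at least 10 counts in every library it called 114 for late lactate, 2 and 20 for Lac-CoA and 2971 for WT against G&N. With the 14 libraries in one fit it called 11 and 4 for late and early lactate, 9 for H3K18R and 1 for the interaction. With 1 library left out, calls were 220 to 2446 for stage in G&N, 335 to 1393 in G&N-L, 0 to 1 for H3K18R, 0 to 435 for WT against G&N and 0 to 26 for the interaction.

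Mycn, at 0 in early G&N, held counts for stage in G&N only in its late libraries. It passed there under DESeq2 (8.92), library totals (9.53), no filter (9.29) and the joint fit (9.04). These fitted log2 values depend on the prior count and are no bounds. Myc passed for WT against G&N under DESeq2 (1.82). Myc changed sign for stage in G&N-L on library totals (0.15). With 1 library left out, Myc ranged from -2.94 to 0.71 for stage in G&N-L and from -0.0480 to 0.39 for H3K18R. Mycn ranged from -5.01 to 0.66 for late lactate, from -4.49 to 1.15 for stage in G&N-L and from -4.87 to 0.57 for WT against G&N. Mycl ranged from -6.002 to 6.56 for H3K18R, from -7.31 to 1.89 for WT against G&N and from -6.37 to 1.58 for the interaction. Max ranged from -0.0810 to 0.26 for late lactate, from -0.25 to 0.11 for early lactate, from -0.0844 to 0.21 for stage in G&N, from -0.000700 to 0.34 for the interaction and from -2.22 to -1.74 for WT against G&N. The causes were not tested. A minimum of 10 counts in every library gave no value for members below it. Apart from leaving out a library, 205 values of members kept direction and side of the threshold, 5 newly passed and 2 changed sign. Among other named genes 323 values kept both, 44 newly passed and 13 lost the call.

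Replicate numbers did not pair the samples: differences between replicates 1 and 2 correlated between groups at r of -0.0913 to 0.0589. With the replicate number as a block, 1391 genes were called for stage in G&N-L in place of 2203, Mycn changed sign there (-1.41), and Mlxipl (adjusted p = 0.0846 and 0.0777), Ruvbl2 in G&N (0.0514) and Ruvbl1 (0.0512) and Pprc1 (0.0749) in G&N-L lost their calls. Depth limits Mycn and Mycl, which had 3 counts or fewer in 4 and 8 of the 14 libraries.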
